A study of Mus musculus with 12 samples.

Results

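The effect of a methionine- and choline-deficient (MCD) diet on the mouse liver transcriptome was taken over both genotypes of the study at once. All 12 of the 12 libraries entered the comparison, 6 from livers of mice on MCD and 6 from livers of mice on a control diet, with genotype as an additive covariate. The 4 groups of 3 libraries were flox MCD and cre MCD (LPCAT3flox/flox and LPCAT3flox/flox-cre mice on MCD for 8 weeks), and flox control and cre control (the same genotypes on the control diet). Every group carried loxP-flanked alleles of Lpcat3, which encodes a lysophosphatidylcholine acyltransferase, and the promoter that drives the cre transgene is not given in the labels. The mice were C57BL/6, labelled male and 6 to 8 weeks old, and were fasted for 12 h before collection. Poly(A) RNA of whole liver was sequenced, and nothing in the labels states that each library came from a different mouse, so p-values measure the spread between these libraries.

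Methionine is the source of methyl groups and of cysteine for glutathione, and choline is the head group of phosphatidylcholine, the main phospholipid of the lipoprotein coat. Mice on a diet without them store triglyceride in hepatocytes, lose weight and develop inflammation and fibrosis, which is why the diet is used as a model of steatohepatitis. In this model fat accumulates without obesity or insulin resistance, a known limit of the diet as a model of the human disease.

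The libraries held 40883986 to 65516723 estimated counts. A single ribosomal RNA gene, CT010467.1, took 5.6% to 18.9% of the counts in MCD libraries and 7.34% to 43.04% in control libraries. Mitochondrially encoded protein genes took 7.39% to 13.2% on MCD and 6.26% to 29.96% on the control diet. Neither share, nor that of mitochondrial ribosomal RNA, differed between the diets beyond the spread (2-sided exact permutation tests over the splits of 12 libraries, p = 0.126 to 0.344, 0.344 after adjustment over 3 shares). The hepatocyte markers Alb, Ttr and Apoa1 were high in all 12 libraries, Apoa1 with at least 4095 normalised CPM (counts scaled to library size). On the first principal component, with 29.3% of the variance, the MCD libraries lay at -78.3 to -14.8 and the control libraries at 3.04 to 78.7. Total counts, the cholesterol list and part of the other results are given with and without the libraries set apart here. Counts of other gene lists in cre or flox livers alone are given with all 12 libraries only. The library labelled cre MCD 3 held 56.1 CPM of Lpcat3, within the 41.4 to 63.4 CPM of the flox libraries and above the 16.1 to 23.3 CPM of the other 5 cre libraries. Its full-length Lpcat3 transcript stood at 23.2 FPKM (fragments scaled for transcript length and library size), against 9.90 to 24.1 FPKM in the flox libraries, and was listed at 0 in the other 5 cre libraries. These levels go against the genotype label of that library, which is part of every cre count unless it is said to be left out. The score of flox control 3 on the second component was -94.0, and those of the other libraries were -41.2 to 43.4. The 4 Y-linked genes Ddx3y, Eif2s3y, Kdm5d and Uty had a count of 0 in all 12 libraries labelled male, while Xist stood at 116 to 685 CPM in each. These levels go against the label of male sex in every library.

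Of 16523 genes tested, 1179 (7.14%) were called higher and 1016 (6.15%) lower on MCD at an adjusted p under 0.05, 13.3% in all. The median log2 fold change of all tested genes was 0.0021. The change was at least 2-fold for 593 of the higher and 474 of the lower genes. In 968 called genes (5.86% of those tested) the 6 MCD and the 6 control libraries did not overlap, and over all genes, called or not, 3.39% had every MCD library higher and 2.96% every MCD library lower. Leaving out each library in turn kept 1178 of the 2195 calls in all 12 fits, 630 higher and 548 lower. The count of higher genes became 758 without cre control 2 and 2002 without flox control 3. The count of lower genes became 677 without flox MCD 3, 650 without cre MCD 2 and 1541 without flox control 3. Without both flox control 3 and the library labelled cre MCD 3, 1910 of the 2195 genes were still called. Fitted on the deposited FPKM values (fragments scaled for gene length and library size) with no further scaling, the counts became 4245 higher and 380 lower, and the median of all genes lay at 0.29. In that fit the medians of 16 of the 43 gene lists described here changed sign, 10 of them lists with more lower than higher calls. The unscaled FPKM median is given beside each list median that changed sign, to be read against the shift of 0.29. With FPKM rescaled by size factors the split was 1194 higher and 1104 lower.

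Cre and flox livers mostly changed in the same direction. Of the 2195 called genes, 2193 had the same sign in cre and in flox livers, although pooling itself favours such genes. Within cre livers 1118 genes were called (6.77% of genes, 3.73% higher and 3.04% lower). Within flox livers 871 were called (5.27%, 2.64% higher and 2.63% lower). Both results are contrasts from the same model of all 12 libraries, as are list counts given below for cre or flox livers alone. They compare different libraries but share the gene filter, the scaling and the estimate of spread. In both, 386 genes passed, which is 34.5% of the cre calls and 44.3% of the flox calls, each with the same sign. This overlap is therefore no independent check. Separate fits called 601 higher and 453 lower genes with cre libraries only, and 312 and 343 with flox libraries only. Over all tested genes 66.2% had the same sign in both genotypes (Pearson r = 0.467 and Spearman rho = 0.459 across genes, which are not independent replicates). A further 931 genes passed only with both genotypes pooled. The test of the difference between the genotypes' diet effects called 1 gene (0.00605%) with edgeR, with 1483 genes at an unadjusted p under 0.05, and DESeq2 called 99. The gene was 1 of the overlapping rows of Pakap, a locus that joins a paralemmin and a kinase-anchoring protein, which changed by 0.55 (adjusted p = 0.15) in cre livers and 7 (adjusted p = 1.2e-07) in flox livers (interaction adjusted p = 4e-06). Summed over its 3 rows, Pakap was at 6.14, 10.7 and 13.8 CPM on MCD, against 5.10, 5.73 and 6.76 CPM on the control diet. Counts of overlapping rows are uncertain, and the other tested row had 0 counts in all 6 MCD libraries. Counts in single genotypes moved with the libraries named above. Cre livers gave 291 higher and 254 lower genes without the library labelled cre MCD 3, against 616 and 502 with all 12, and 1084 and 809 without flox control 3. Flox livers gave 744 higher and 657 lower genes without both libraries, against 437 and 434 with all 12.

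**Figure D1:**
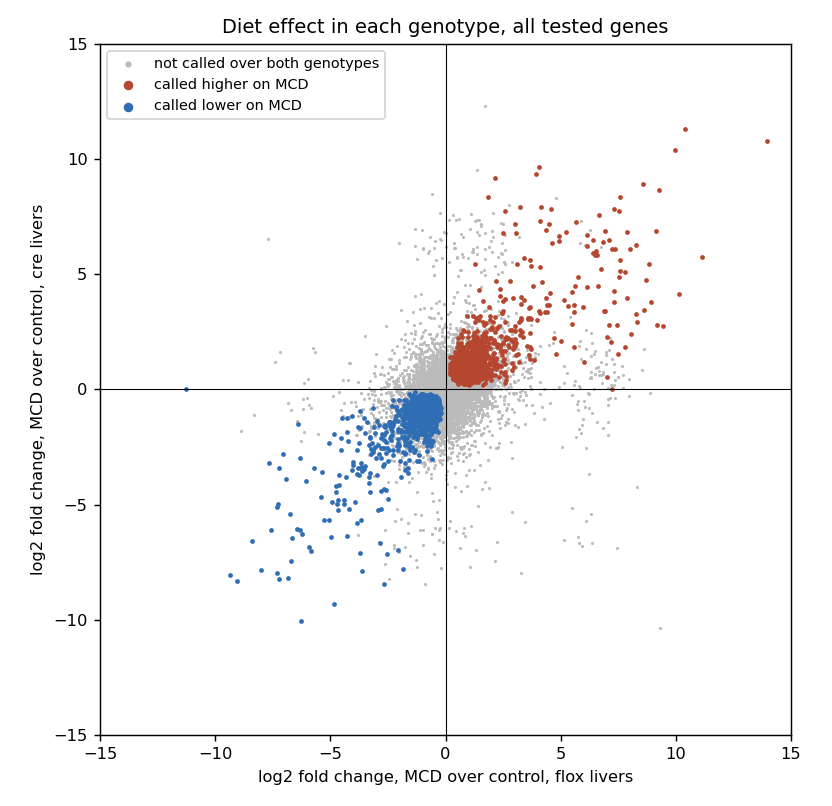
Log2 fold change of MCD over control in flox livers (horizontal axis) and in cre livers (vertical axis) for each of 16523 tested genes, from 1 fit with a mean per group. Red points are the 1179 genes called higher and blue points the 1016 called lower over both genotypes, of which 2193 lie in the quadrants of equal sign; values far from 0 often rest on a group with no or few counts.

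Levels are from here on normalised CPM given as the lowest, the median and the highest of the 6 libraries of a diet. Changes are log2 fold changes of MCD over control with their standard error (SE) and the adjusted p of edgeR's quasi-likelihood test over all genes. The 187 genes that the rule for named genes came from 43 lists and from the extremes of the comparison. Levels of different genes are not per length and are not compared.

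Promoter sequences of genes from the stress lists are shown first, because members of these lists rose together and the motifs of their regulators are short enough to be read by eye. NRF2 is a transcription factor that binds antioxidant response elements in genes of detoxification and glutathione metabolism. ATF4, made when amino acids run short or the endoplasmic reticulum is stressed, binds C/EBP-ATF response elements in genes of amino acid synthesis and transport. Promoters are RefSeq's on GRCm38.p6, 250 bases before to 50 after the start, searched on both strands. The antioxidant core TGACNNNGC was found in 10 of 25 NRF2 targets with a promoter in the table, which is 40.0%, and in 4 of the 15 called higher (26.7%). It was found in 17.4% of all genes called higher, 14.6% of those called lower, 16.6% of the 11545 tested genes with a promoter and 12.4% of all 32851 promoters, so the share among higher genes was near that of tested genes. The element TGATGNAA was found in 8 of 23 ATF4 targets (34.8%) and in 5 of the 8 called higher (62.5%), against 3.74% of all higher genes, 2.84% of all lower genes, 2.96% of tested genes and 3.97% of all promoters. A direct repeat bound by PPARalpha with RXR, AGGNCA repeated after 1 base, was found in 0 of 17 promoters of peroxisomal and omega oxidation genes, against 0.346% of tested genes and 0.381% of all promoters. The ATF4 and NRF2 lists hold genes known to be regulated by these factors, so the shares describe the lists and not these livers. Shown are, for each list, the called genes of smallest p that hold the motif, with the motif in capitals: Srxn1 (chr2:152105274-152105573, plus strand), Abcc4 (chr14:118706170-118706469, minus strand), Nupr1 (chr7:126625421-126625720, minus strand) and Asns (chr6:7693160-7693459, minus strand).
Srxn1: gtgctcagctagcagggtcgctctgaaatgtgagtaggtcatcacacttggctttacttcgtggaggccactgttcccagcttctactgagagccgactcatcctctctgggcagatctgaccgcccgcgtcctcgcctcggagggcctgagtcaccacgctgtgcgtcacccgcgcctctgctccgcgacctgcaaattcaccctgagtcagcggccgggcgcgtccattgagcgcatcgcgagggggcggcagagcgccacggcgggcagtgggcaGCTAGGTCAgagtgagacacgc
Abcc4: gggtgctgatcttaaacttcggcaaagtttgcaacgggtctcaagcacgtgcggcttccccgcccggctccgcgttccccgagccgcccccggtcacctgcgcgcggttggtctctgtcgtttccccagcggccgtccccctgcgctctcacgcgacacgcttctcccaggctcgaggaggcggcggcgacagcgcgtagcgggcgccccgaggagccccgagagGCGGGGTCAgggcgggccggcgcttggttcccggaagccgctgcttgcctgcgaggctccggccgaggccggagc
Nupr1: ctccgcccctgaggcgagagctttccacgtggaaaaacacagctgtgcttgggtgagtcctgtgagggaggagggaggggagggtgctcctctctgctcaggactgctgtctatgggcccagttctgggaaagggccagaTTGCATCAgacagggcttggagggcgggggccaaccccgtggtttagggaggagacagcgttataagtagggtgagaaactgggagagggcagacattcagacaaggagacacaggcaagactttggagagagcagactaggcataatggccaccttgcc
Asns: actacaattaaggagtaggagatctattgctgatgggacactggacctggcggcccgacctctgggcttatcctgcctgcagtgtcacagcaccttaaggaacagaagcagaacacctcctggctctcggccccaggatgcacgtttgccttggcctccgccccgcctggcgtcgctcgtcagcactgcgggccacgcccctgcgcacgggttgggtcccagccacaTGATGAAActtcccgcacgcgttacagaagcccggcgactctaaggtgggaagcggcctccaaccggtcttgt
In Srxn1, Abcc4 and Nupr1 the motif lies on the opposite strand to the one printed, and in Asns on the printed strand. Its first printed base stands 28 bases after the start of Srxn1 and 25, 110 and 23 bases before the starts of Abcc4, Nupr1 and Asns. Abcc4 has another promoter with the motif, which is not printed (chr14:118676882-118677181, minus strand). There the motif lies on the same strand as the gene and begins 23 bases before the start.

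The genes behind these promoters rose with no overlap between diets. Srxn1, sulfiredoxin, which repairs oxidised peroxiredoxins, was at 56.2, 69.3 and 86.8 CPM on MCD, against 20.04, 26.2 and 30.7 CPM on the control diet. It changed by 1.44 ± 0.15 (adjusted p = 3.2e-05). Abcc4, a basolateral exporter of bile acids and conjugates, was at 9.61, 12.8 and 14.7 CPM on MCD, against 2.93, 3.58 and 8.27 CPM on the control diet, with a change of 1.56 ± 0.21 (adjusted p = 0.00031). Nupr1, a small chromatin protein induced by stress, was at 5.10, 7.23 and 16.4 CPM on MCD, against 0.508, 1.06 and 1.86 CPM on the control diet, and changed by 2.88 ± 0.31 (adjusted p = 3.8e-05). Asns, asparagine synthetase, was at 4.73, 6.88 and 21.5 CPM on MCD, against 0, 0 and 0.743 CPM on the control diet. It had 0 counts in all control libraries but cre control 1. Its log2 fold change was 6.50 ± 0.79 (adjusted p = 9.9e-05), and 11.8 without cre control 1, a value that depends on the fit and is no bound.

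Of 29 NRF2 targets tested, 16 were higher and 0 lower, with a list median of 0.83, and 13 of the 16 were called in every leave-one-out fit. Hmox1, heme oxygenase 1, was at 7.01, 17.1 and 30.2 CPM on MCD, against 2.93, 5.86 and 6.59 CPM on the control diet, a change of 1.71 ± 0.26 (adjusted p = 0.00068). Tkt, transketolase of the pentose phosphate pathway, was at 99.96, 133 and 195 CPM on MCD, against 62.8, 64.7 and 76.5 CPM on the control diet, a change of 0.99 ± 0.15 (adjusted p = 0.00069). Slc7a11, the cystine carrier of the cystine-glutamate exchanger, is a target of both factors and had 0 counts in all 6 control libraries. On MCD it was at 0.0928, 0.732 and 2.31 CPM, at least 75.6-fold higher than 3 counts over the 6 control libraries. Members of the list that did not pass included Gclc, Gclm and Nfe2l2 itself, chosen here after their values were seen. Macrophages also express Hmox1, and the summed macrophage markers were 1480.0 to 2745.0 CPM on MCD and 938.0 to 1680.0 CPM on the control diet; their part in this count was not tested.

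The ATF4 list had 8 higher and 0 lower of 25 tested, median 0.36, and 6 of the 8 were called in every leave-one-out fit. Beside Nupr1, Asns and Slc7a11, Psat1, the aminotransferase of serine synthesis, was at 2.37, 7.03 and 16.9 CPM on MCD, against 0, 0.0896 and 0.481 CPM on the control diet. Its change was 5.65 ± 0.79 (adjusted p = 0.00033), and 6.95 without flox control 3. Chaperones were called less uniformly. Of 23 endoplasmic reticulum chaperones and XBP1 targets 1 was higher and 2 were lower, median -0.02 (0.40 in unscaled FPKM). These are 4.35% and 8.7%, against 7.14% and 6.15% of all genes. P4hb, protein disulfide isomerase, changed by 0.76 ± 0.19 (adjusted p = 0.018). Herpud1 and Edem1, which serve degradation of misfolded proteins, changed by -1.08 ± 0.26 (adjusted p = 0.013) and by -0.57 ± 0.14 (adjusted p = 0.018). The higher count was 2 without flox control 2 and 4 without flox control 3.

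The largest rises in genes with a mean of at least 5 CPM and no overlap between diets were those of Mmp12 and Gpnmb, both known from macrophages, followed by Gsta1, Ly6d and Cidec. Mmp12 (ENSMUSG00000049723, mm10 chr9:7344381-7369499), macrophage elastase, was at 2.02, 9.93 and 48.3 CPM on MCD, against 0, 0.0464 and 0.267 CPM on the control diet, a change of 7.65 ± 0.72 (adjusted p = 1.2e-05). Gpnmb (chr6:49036546-49070929), a lysosomal glycoprotein of lipid-laden macrophages, was at 0.812, 7.44 and 46.3 CPM on MCD, against 0, 0.0445 and 0.255 CPM on the control diet. It changed by 7.12 ± 1.01 (adjusted p = 0.0004), by 9.01 without cre control 1 and by 6.49 without flox control 2. Over the 6 control libraries Mmp12 had 21 counts and Gpnmb 17, so the sizes and ranks of their changes rest on few control counts. Both genes were lower in each cre MCD library than in any flox MCD library, but the difference of the diet effects did not pass for either (adjusted p = 0.9 and 0.39). Cidec (ENSMUSG00000030278, chr6:113424634-113435760), which fuses lipid droplets into larger ones, was at 9.77, 18.8 and 65.2 CPM on MCD, against 0.321, 0.473 and 0.982 CPM on the control diet, a change of 5.33 ± 0.43 (adjusted p = 2.5e-06).

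Ly6d, a surface protein of epithelial and B lineage cells, was at 22.0, 50.6 and 66.8 CPM on MCD, against 0.415, 0.895 and 2.09 CPM on the control diet, a change of 5.34 ± 0.38 (adjusted p = 1.2e-06). Gsta1, an alpha-class glutathione S-transferase, was at 28.2, 32.4 and 144 CPM on MCD, against 0, 1.38 and 2.25 CPM on the control diet, a change of 5.55 ± 0.72 (adjusted p = 0.00018). Aqp4, a water channel, was at 24.99, 31.4 and 46.9 CPM on MCD, against 0.275, 1.89 and 3.43 CPM on the control diet, a change of 4.40 ± 0.39 (adjusted p = 7e-06). Apoa4, an apolipoprotein of triglyceride-rich particles, was at 1168, 2924 and 3819 CPM on MCD, against 66.8, 212 and 257 CPM on the control diet. It changed by 3.88 ± 0.38 (adjusted p = 1.5e-05) and was also the gene with the largest gain in mean CPM. The others of the 15 largest rises were Cgref1, Nat8, Uap1l1, Prss8, Cd63, Cyp4a31, Osbpl3 and Olig1, with log2 fold changes of 3.30 to 4.41. All 15 were called in every leave-one-out fit. Their sign was positive in both genotypes, which the condition of no overlap between diets sets in advance. That condition also favours calls in every fit.

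Falls of comparable size were in the major urinary proteins (Mup), pheromone carriers that the liver secretes under growth hormone, and in cytochromes P450 and sulfotransferases. The Mup genes are near-identical copies on chromosome 4, so a value for a single copy is uncertain. Summed over 22 rows, Mup counts stood at 331, 417 and 615 CPM on MCD, against 1767, 3818 and 6105 CPM on the control diet. Without Mup20 the sum of 21 rows was 165, 189 and 263 CPM on MCD, against 1742, 3742 and 6019 CPM on the control diet. The sums did not overlap, and even the lowest control library, flox control 1, was above the highest MCD library. Of the 15 largest falls 11 were Mup copies, with log2 fold changes of -7.88 to -5.04. Leaving out 1 library moved 4 of these by over 1.5 times. Mup1 changed by -6.09 with all libraries and by -4.45 without flox control 2, and Mup15 by -7.88 and by -7.23 without cre control 2. Mup8 changed by -7.28 with all libraries and by -8.30 without flox MCD 2. Mup22 changed by -7.52 with all libraries, by -8.70 without the library labelled cre MCD 3 and by -6.63 without flox control 3. Mup20, the copy that encodes darcin and was singled out after its values were seen, went the other way, at 141, 237 and 388 CPM on MCD, against 24.6, 57.7 and 85.7 CPM on the control diet, a change of 2.10 ± 0.30 (adjusted p = 0.00039).

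Cyp3a16 (ENSMUSG00000038656, chr5:145436309-145469723), a P450 of young and female livers, was at 0, 0.213 and 0.417 CPM on MCD, against 8.61, 33.2 and 107 CPM on the control diet, a change of -7.94 ± 0.58 (adjusted p = 1.2e-06). Sult3a1, a sulfotransferase found mainly in female livers, was at 0, 0.370 and 1.04 CPM on MCD, against 38.5, 65.4 and 174 CPM on the control diet. It changed by -7.73 ± 0.85 (adjusted p = 4.6e-05), and by -8.83 without flox MCD 2. Cyp2c54 (chr19:40037940-40073827), a P450 that oxidises arachidonic acid, was at 2.03, 5.86 and 16.3 CPM on MCD, against 146, 352 and 691 CPM on the control diet, a change of -6.08 ± 0.39 (adjusted p = 5.2e-07). Slco1a1, a sinusoidal carrier for bile acids and steroid conjugates, was at 0.110, 0.388 and 0.689 CPM on MCD, against 3.85, 9.52 and 44.0 CPM on the control diet, a change of -5.22 ± 0.67 (adjusted p = 0.00018). These falls, too, stood in every leave-one-out fit. They were picked for no overlap between diets, which sets the same sign in both genotypes and favours calls in every fit.

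**Figure D2:**
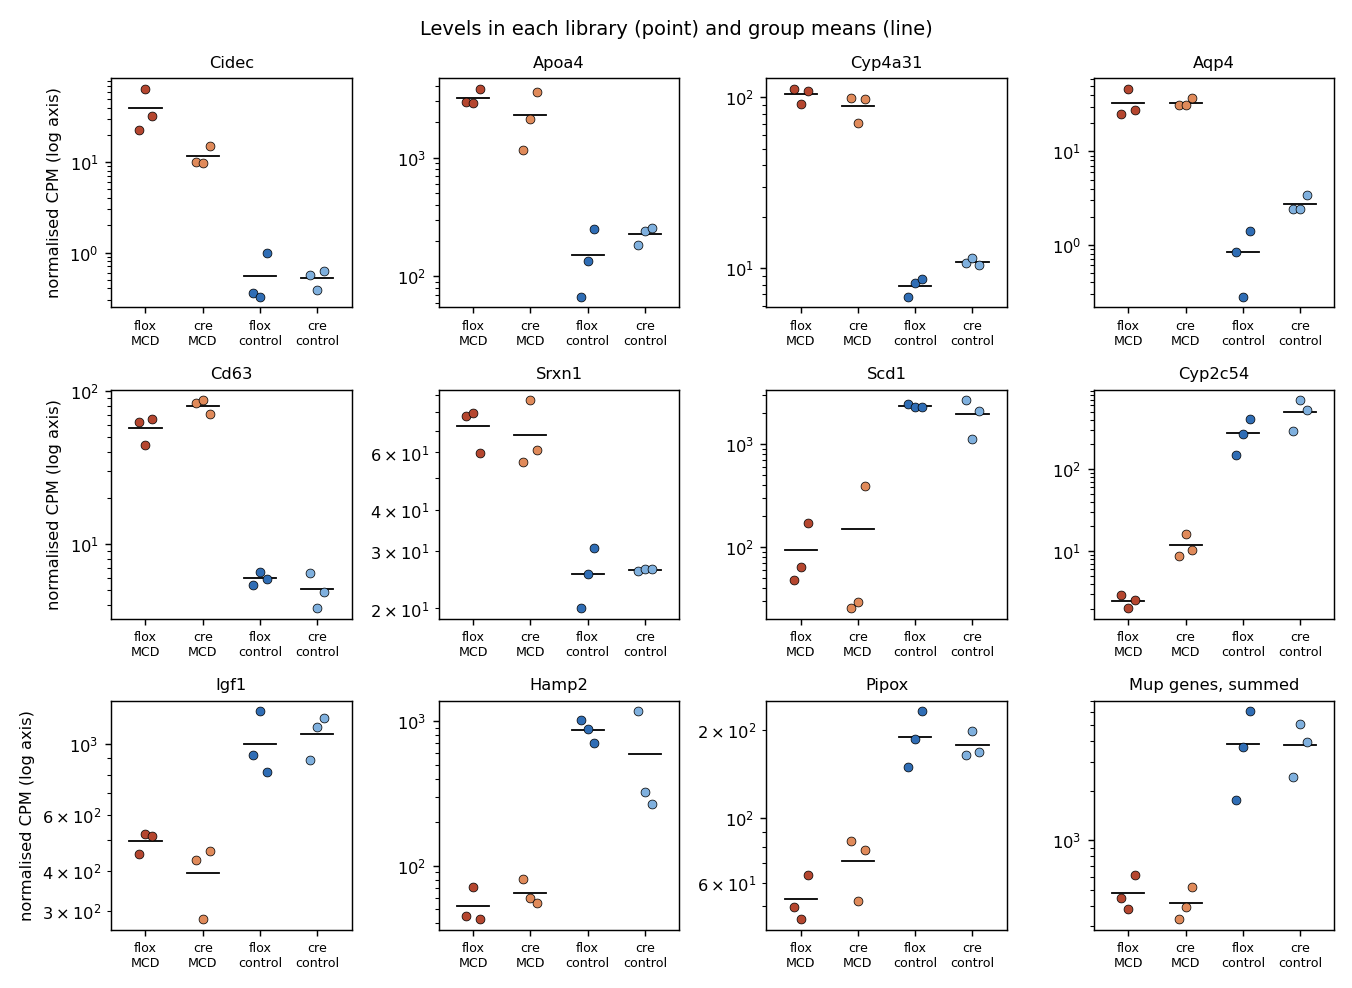
Normalised CPM on a log axis in each of the 12 libraries (points, 3 per group) with the group mean (line) for 11 genes and for the sum of 22 Mup rows; MCD groups stand left of control groups. In every panel the 6 MCD libraries lie wholly above or wholly below the 6 control libraries.

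The diet withdraws methionine and choline, and genes that use or save them moved in both directions. Of 32 enzymes of the methionine cycle, choline oxidation and one-carbon metabolism, 6 were higher and 7 lower, median -0.29 (0.10 in unscaled FPKM). Mat2a, the methionine adenosyltransferase of non-hepatocyte type, which makes S-adenosylmethionine, was at 68.1, 91.4 and 112 CPM on MCD, against 21.1, 25.2 and 63.3 CPM on the control diet, a change of 1.54 ± 0.26 (adjusted p = 0.0016). Mthfd1l, a mitochondrial formyl-tetrahydrofolate synthetase, was at 1.57, 2.36 and 2.57 CPM on MCD, against 0.167, 0.451 and 0.696 CPM on the control diet, a change of 2.37 ± 0.30 (adjusted p = 0.00017). Pipox and Sardh oxidise pipecolate and sarcosine, and sarcosine is a product of choline breakdown. Pipox was at 45.1, 58.1 and 83.6 CPM on MCD, against 149, 178 and 233 CPM on the control diet, a change of -1.58 ± 0.18 (adjusted p = 5.8e-05). Sardh was at 204, 269.5 and 315 CPM on MCD, against 432, 488 and 749 CPM on the control diet, a change of -1.002 ± 0.18 (adjusted p = 0.0021). The lower count depended on single libraries. It was 2 without flox MCD 2, flox MCD 3 or cre MCD 2, 3 without flox MCD 1, and 4 without flox control 2 or cre control 2.

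Genes of phosphatidylcholine and phosphatidylethanolamine synthesis gave 2 higher and 3 lower of 26. These are 7.69% and 11.5%, against 7.14% and 6.15% of all genes, and 0 of the 5 calls stood in every leave-one-out fit. The higher count was 0 or 1 when any library but cre MCD 1 or flox control 3 was left out, and the lower count 0 or 1 when any library but flox control 3 or cre control 1 was left out. The called genes were Pla2g6 (0.61 ± 0.15, adjusted p = 0.02), Slc44a1, a choline carrier (-0.48 ± 0.14, adjusted p = 0.035), Gpcpd1 (-0.60 ± 0.18, adjusted p = 0.044), Pnpla6 (-0.86 ± 0.27, adjusted p = 0.046) and Pisd, which changed upwards. Lpcat3 itself did not pass, with 16.1, 48.6 and 56.3 CPM on MCD, against 19.6, 34.8 and 63.4 CPM on the control diet and a change of 0.27 ± 0.25 (adjusted p = 0.53). Sult1e1, estrogen sulfotransferase, was at 2.72, 39.2 and 71.3 CPM on MCD, against 0, 0.863 and 7.19 CPM on the control diet. The groups overlapped, yet it changed by 4.39 ± 0.75 (adjusted p = 0.0015) and was called in every leave-one-out fit. Its change was 5.28 without flox control 3 and 3.80 without the library labelled cre MCD 3.

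Genes of amino acid catabolism had the lowest list median of the 43 after the Mup and growth hormone list. Of 35 enzymes 18 were lower and 0 higher, median -0.62, and 12 of the 18 stood in every leave-one-out fit. Sds, serine dehydratase, was at 43.02, 82.9 and 101 CPM on MCD, against 181, 227 and 272 CPM on the control diet, a change of -1.52 ± 0.19 (adjusted p = 0.00011). Uroc1, urocanase of histidine breakdown, was at 74.1, 113 and 143 CPM on MCD, against 235, 249 and 313 CPM on the control diet, a change of -1.19 ± 0.15 (adjusted p = 0.00018). Aass, the first enzyme of lysine breakdown, was at 68.6, 92.2 and 132 CPM on MCD, against 199, 218 and 292 CPM on the control diet, a change of -1.25 ± 0.18 (adjusted p = 0.0004). Prodh2, which oxidises hydroxyproline, changed by -1.02 ± 0.15 (adjusted p = 0.00069). In each of these 4 genes the diets did not overlap. Cre livers alone gave 8 lower members and flox livers 17, and the difference was not tested for the list.

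The urea cycle list gave 5 lower and 0 higher of 14, median -0.28 (0.16 in unscaled FPKM), 4 of them in every leave-one-out fit. Otc, ornithine transcarbamylase, was at 119, 158 and 203 CPM on MCD, against 283, 376 and 494 CPM on the control diet, a change of -1.26 ± 0.18 (adjusted p = 0.00035). Asl, argininosuccinate lyase, was at 224, 283 and 376 CPM on MCD, against 445, 555 and 713 CPM on the control diet, a change of -0.97 ± 0.18 (adjusted p = 0.0023). The rate-limiting enzyme Cps1, chosen here after its value was seen, did not pass. Slc1a2, a glutamate carrier of pericentral hepatocytes, changed by -1.01 ± 0.19 (adjusted p = 0.0027). Gls2, liver glutaminase, changed by -0.9979 ± 0.23 (adjusted p = 0.0099), with overlapping diets.

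Several lipid droplet genes rose, and the desaturase Scd1 fell. Of 20 proteins of lipid droplets and lipolysis 6 were higher and 0 lower, median 0.37, and the count was 11 without flox control 3. Besides Cidec these included Plin3, a droplet coat protein, at 20.4, 27.2 and 38.3 CPM on MCD, against 9.02, 11.1 and 13.4 CPM on the control diet, a change of 1.35 ± 0.16 (adjusted p = 8.6e-05). Hilpda, an inhibitor of adipose triglyceride lipase, changed by 1.66 ± 0.26 (adjusted p = 0.00087), and Pnpla2, that lipase, by 1.11 ± 0.23 (adjusted p = 0.0052). Pparg, a transcription factor of lipid storage that stands in another list, was at 9.93, 12.3 and 14.7 CPM on MCD, against 3.48, 5.07 and 6.39 CPM on the control diet, a change of 1.32 ± 0.18 (adjusted p = 0.0003). Macrophages also store lipid, and their markers, with the sums given above, were higher on MCD; their part in these values was not tested.

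Of 25 genes that make or desaturate fatty acids 2 were higher and 4 lower, median 0.01. These are 8.0% and 16.0%, against 7.14% and 6.15% of all genes. Scd1 (chr19:44394455-44407879), stearoyl-CoA desaturase, which makes oleate, was at 25.3, 55.8 and 391 CPM on MCD, against 1138, 2316 and 2709 CPM on the control diet. Its change was -4.19 ± 0.65 (adjusted p = 0.0008), and -5.29 without the library labelled cre MCD 3, which held the highest MCD value. Srebf1, the transcription factor of lipogenesis, was at 9.57, 14.4 and 24.6 CPM on MCD, against 23.6, 34.4 and 43.1 CPM on the control diet, a change of -1.17 ± 0.23 (adjusted p = 0.0044), with overlapping diets. The 2 higher members were fatty acid elongases, Elovl7 with 3.44 ± 0.44 (adjusted p = 0.00017) and Elovl1 with 0.83 ± 0.13 (adjusted p = 0.0011). The higher count became 6 without flox control 3.

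Mitochondrial fatty acid oxidation and ketogenesis gave 3 higher (12.0%, against 7.14% of all genes) and 0 lower of 25. Only Acot2 stood in every leave-one-out fit. Acot2, a mitochondrial acyl-CoA thioesterase, was at 38.8, 83.6 and 151 CPM on MCD, against 19.9, 24.5 and 29.0 CPM on the control diet, a change of 1.69 ± 0.24 (adjusted p = 0.00035). The count was 1 when any library but flox MCD 1, cre MCD 1 or flox control 3 was left out, and 10 without flox control 3. Peroxisomal and omega oxidation gave 6 higher and 2 lower of 27, with 5 and 2 in every leave-one-out fit. These are 22.2% and 7.41%, against 7.14% and 6.15% of all genes. Close paralogs moved apart. Cyp4a31 (chr4:115563649-115579015), a fatty acid omega-hydroxylase, was at 70.7, 98.5 and 112 CPM on MCD, against 6.76, 9.54 and 11.4 CPM on the control diet, a change of 3.38 ± 0.17 (adjusted p = 7.1e-08). Cyp4a14 was at 1978, 2540.0 and 4899 CPM on MCD, against 900.1, 1316 and 1920.0 CPM on the control diet, a change of 1.11 ± 0.21 (adjusted p = 0.0032). Cyp4a10 was at 413, 607 and 739.6 CPM on MCD, against 937, 1201 and 1362 CPM on the control diet, a change of -1.01 ± 0.18 (adjusted p = 0.0025). Reads can be shared among these neighbouring copies, so the split between them is uncertain. Pex11a, which divides peroxisomes, changed by 0.98 ± 0.19 (adjusted p = 0.0034).

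Cholesterol synthesis genes passed in cre livers and hardly at all over both genotypes. Over both genotypes 2 of 25 members were lower (8.0%, against 6.15% of all genes) and 0 higher. Without any 1 of the 3 flox MCD libraries the lower count was 0, while without flox control 3 the higher count was 4. In cre livers alone 11 members were higher and 0 lower, with a list median of 1.13, and in flox livers 0 were higher and 3 lower, median -0.44. Fdps, farnesyl diphosphate synthase, changed by 2.42 (adjusted p = 0.0019) in cre livers and by -0.36 (adjusted p = 0.67) in flox livers. Sqle, squalene epoxidase, changed by 2.30 (adjusted p = 0.016) in cre livers and by -0.44 (adjusted p = 0.71) in flox livers. These 2 genes were chosen after their values were seen. No member passed the test of the difference between genotypes (adjusted p = 0.21 for Fdps and 0.36 for Sqle). Without the library labelled cre MCD 3 the cre count was 8, without flox control 3 it was 14, and without both 12.

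**Figure D3:**
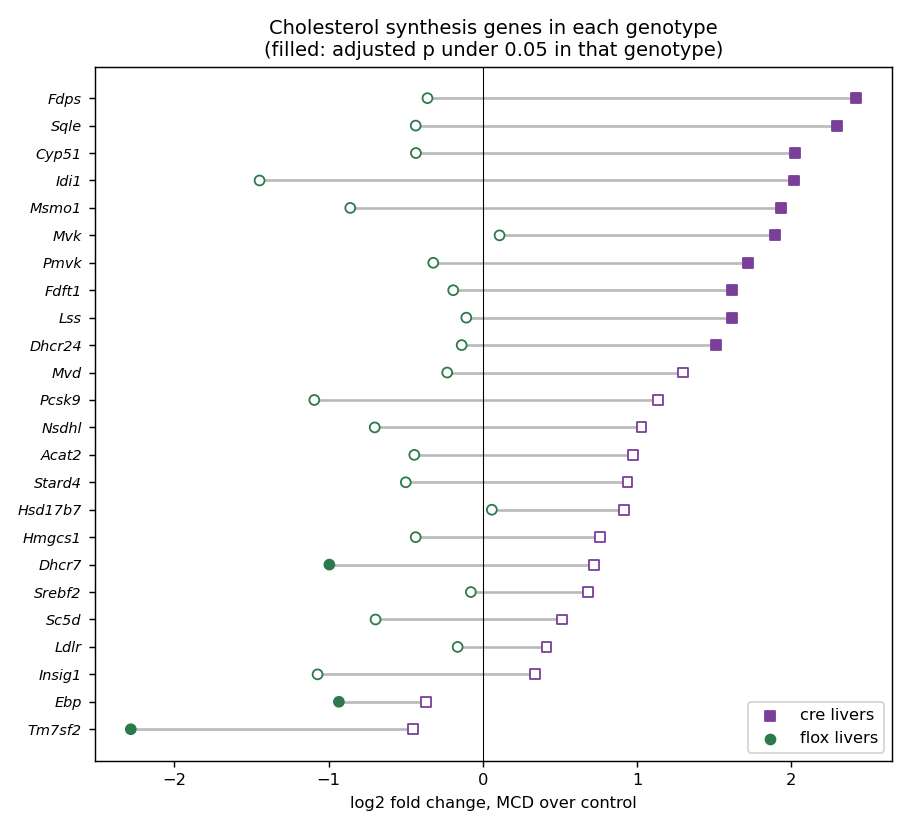
Log2 fold change of MCD over control for 24 of the 25 genes of cholesterol synthesis in cre livers (squares) and flox livers (circles), from 1 fit with a mean per group; filled symbols passed at an adjusted p under 0.05 in that genotype. In cre livers 10 of the genes drawn passed, all upwards, and in flox livers 3 passed, all downwards, and none passed the test of the difference.

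Lipoprotein genes split evenly, 5 higher and 5 lower of 28, median -0.02 (0.39 in unscaled FPKM), with 5 and 4 in every leave-one-out fit. Apoa4, given above, and Lpl, lipoprotein lipase, rose. Lpl, which macrophages and other non-hepatocyte cells make, was at 89.1, 179 and 251 CPM on MCD, against 23.9, 40.7 and 50.5 CPM on the control diet, a change of 2.12 ± 0.24 (adjusted p = 5.2e-05). Lipc, hepatic lipase, was at 60.6, 75.8 and 82.2 CPM on MCD, against 146, 164 and 229 CPM on the control diet, a change of -1.28 ± 0.15 (adjusted p = 9.2e-05). Pltp, phospholipid transfer protein, was at 3.12, 5.89 and 8.98 CPM on MCD, against 15.7, 34.5 and 65.0 CPM on the control diet, a change of -2.48 ± 0.34 (adjusted p = 0.0003). Apoc1, an abundant apolipoprotein, was at 3068, 3484 and 4412 CPM on MCD, against 6570.0, 7352 and 8575 CPM on the control diet, a change of -1.07 ± 0.16 (adjusted p = 0.00073), among the 5 largest losses in mean CPM. Apob and Mttp, which build very-low-density lipoprotein, did not pass; they were chosen after their values were seen.

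Of 27 bile acid genes 9 were lower and 2 higher, with a median of -0.34 (0.06 in unscaled FPKM). These are 33.3% and 7.41%, against 6.15% and 7.14% of all genes. Akr1d1, the 5beta-reductase of bile acid synthesis, was at 115, 143 and 193 CPM on MCD, against 227, 284 and 339.7 CPM on the control diet, a change of -0.93 ± 0.14 (adjusted p = 0.00068). Slc51b, a subunit of the basolateral exporter, was at 0.760, 4.33 and 11.2 CPM on MCD, against 0, 0.0464 and 0.272 CPM on the control diet. Its change was 5.51 ± 0.76 (adjusted p = 0.00031), and 6.71 without flox control 3. Slco1a1 and Abcc4 are described above. The lower count was 4 without flox MCD 1 or cre control 2 and 5 without cre MCD 2, and the higher count was 4 without flox control 3.

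Drug-metabolising enzymes changed in both directions. Of 39 xenobiotic cytochromes P450, 14 were lower and 4 higher, median -0.40 (0.08 in unscaled FPKM), with 11 and 2 in every leave-one-out fit. Cyp2c69, of the Cyp2c cluster, was at 23.3, 38.5 and 68.9 CPM on MCD, against 159, 369 and 476 CPM on the control diet, a change of -3.03 ± 0.29 (adjusted p = 1.4e-05). Cyp2c40, a neighbour of it that oxidises arachidonic acid, was at 51.1, 61.4 and 72.5 CPM on MCD, against 116, 204 and 278 CPM on the control diet, a change of -1.69 ± 0.20 (adjusted p = 7e-05). Cyp3a11, the main xenobiotic P450 of its subfamily in mouse liver, was at 3256, 4313 and 5690.0 CPM on MCD, against 1993, 2467 and 3384 CPM on the control diet, a change of 0.80 ± 0.19 (adjusted p = 0.015), with overlapping diets. The 4 higher P450 calls became 7 without flox control 3 and 2 without cre control 2 or cre control 3. Cre livers alone gave 7 lower and 5 higher members, and flox livers 14 lower and 0 higher; the difference was not tested.

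Of 41 conjugation enzymes 9 were higher and 9 lower (median -0.04, 0.45 in unscaled FPKM), with 9 and 6 in every leave-one-out fit. Glutathione S-transferases were among the higher. Gstp1 was at 269, 317 and 533 CPM on MCD, against 81.4, 92.8 and 121 CPM on the control diet, a change of 1.86 ± 0.19 (adjusted p = 2.2e-05). Gstm3 was at 37.3, 87.9 and 125 CPM on MCD, against 9.54, 12.2 and 26.2 CPM on the control diet, a change of 2.57 ± 0.32 (adjusted p = 0.00013). Sult2a8, a hepatic bile acid sulfotransferase of the mouse, was at 22.3, 31.3 and 44.9 CPM on MCD, against 272, 426 and 626 CPM on the control diet, a change of -3.78 ± 0.25 (adjusted p = 5.2e-07). Its diets stood far apart, with the lowest control library above the highest MCD library.

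**Figure D4:**
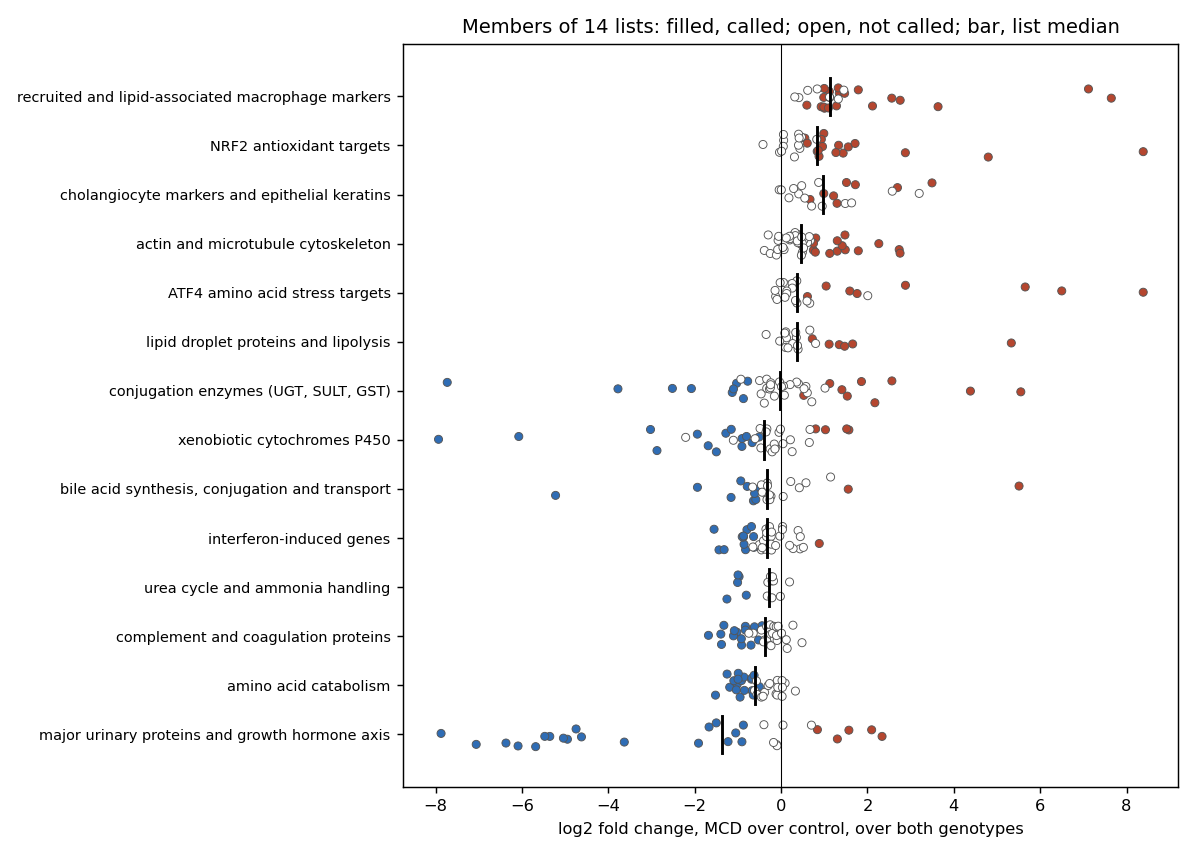
Log2 fold change of MCD over control over both genotypes for each tested member of 14 gene lists; filled points passed (red higher, blue lower), open points did not, and the black bar is the list median. Macrophage and NRF2 members lie mostly above 0 and amino acid, complement and Mup members mostly below; in the FPKM fit the median of all genes shifts by 0.29 and the medians of the P450, bile acid, conjugation, interferon, urea and complement lists change sign.

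The list of Mup genes and of the growth hormone and insulin-like growth factor axis held 30 tested genes, of which 19 were lower and 5 higher, median -1.37, with 18 and 4 in every leave-one-out fit. Near-identical Mup copies made up 14 of the 30, with 12 lower and 1 higher. Of the 16 other members 7 were lower and 4 higher, median -0.29, with 6 and 3 in every leave-one-out fit; this split of the list was made after its values were seen. Igf1, the hepatic growth factor induced by growth hormone, was at 283, 459 and 522 CPM on MCD, against 819, 1025 and 1264 CPM on the control diet, a change of -1.23 ± 0.18 (adjusted p = 0.00053). The further members here were singled out after their values were seen. Ghr, the growth hormone receptor, was at 112, 132 and 168 CPM on MCD, against 180.3, 265 and 432 CPM on the control diet, a change of -1.05 ± 0.19 (adjusted p = 0.0023). Igfals, which stabilises circulating IGF1, changed by -0.87 ± 0.14 (adjusted p = 0.00094). Igfbp2, an IGF-binding protein that rises in fasting, was at 1039, 1316 and 2016 CPM on MCD, against 210.2, 486 and 641 CPM on the control diet, a change of 1.57 ± 0.26 (adjusted p = 0.0014). Fgf21, a fasting and stress hormone, was at 11.02, 35.0 and 43.5 CPM on MCD, against 2.79, 4.64 and 12.3 CPM on the control diet, a change of 2.34 ± 0.42 (adjusted p = 0.0021). Of these 5 genes only Fgf21 overlapped, its highest control library lying above its lowest MCD library.

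Metal and iron genes split, with 8 higher and 6 lower of 23, median 0.33. Hamp2, a hepcidin paralog, was at 42.7, 57.8 and 80.5 CPM on MCD, against 269, 792 and 1171 CPM on the control diet, a change of -3.60 ± 0.36 (adjusted p = 2.2e-05). Mt2, metallothionein 2, was at 10.9, 27.2 and 41.1 CPM on MCD, against 42.8, 171 and 231 CPM on the control diet, a change of -2.54 ± 0.38 (adjusted p = 0.00068). Slc39a5, a zinc importer, was at 8.52, 11.8 and 16.4 CPM on MCD, against 0.756, 1.92 and 3.08 CPM on the control diet, a change of 2.80 ± 0.28 (adjusted p = 1.7e-05). Slc30a10, a manganese exporter, changed by -1.57 ± 0.24 (adjusted p = 0.00078). For metal genes the higher count was 3 without cre MCD 2 or cre control 2, 4 without flox MCD 1, flox MCD 3, flox control 1 or cre control 1, and 5 without flox control 2 or cre control 3.

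Of 35 genes of gluconeogenesis, glycogen and glycolysis 9 were higher and 6 lower, median 0.30. Ppp1r3b, which targets phosphatase to glycogen, was at 20.7, 39.0 and 71.1 CPM on MCD, against 138, 164 and 196 CPM on the control diet, a change of -2.10 ± 0.24 (adjusted p = 5.5e-05). Aldoa, the aldolase of muscle and dividing cells, was at 106, 139 and 183 CPM on MCD, against 63.7, 76.0 and 85.6 CPM on the control diet, a change of 0.92 ± 0.16 (adjusted p = 0.0019). Eno1, enolase, changed by 1.49 ± 0.30 (adjusted p = 0.0049). Among these sugar genes the higher count was 3 without cre control 3, 4 without cre MCD 2, cre MCD 3, flox control 1 or cre control 2, and 5 without flox MCD 1 or flox control 2.

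Genes of secreted plasma proteins were called lower more often than higher. Of 41 complement and coagulation genes 16 were lower and 0 higher, median -0.38 (0.07 in unscaled FPKM), 12 of the 16 in every leave-one-out fit. C4b, complement component 4, was at 182, 224 and 279 CPM on MCD, against 587, 726 and 807 CPM on the control diet, a change of -1.68 ± 0.15 (adjusted p = 5.1e-06). Its change was -1.69 (adjusted p = 0.00057) in cre livers and -1.68 (adjusted p = 0.00044) in flox livers. Proz, protein Z of coagulation, was at 163, 191 and 218 CPM on MCD, against 307, 387 and 484 CPM on the control diet, a change of -1.03 ± 0.14 (adjusted p = 0.0003). C8g was at 163, 183 and 261 CPM on MCD, against 354, 404 and 494 CPM on the control diet, a change of -1.10 ± 0.16 (adjusted p = 0.00039). Fga, Fgb, Fgg and F2, which encode fibrinogen and prothrombin and were chosen after their values were seen, did not pass. Acute phase genes gave 4 higher and 4 lower of 27, median -0.20 (0.24 in unscaled FPKM). Apcs, serum amyloid P, was at 348, 750.1 and 936 CPM on MCD, against 87.1, 132 and 175 CPM on the control diet, a change of 2.35 ± 0.23 (adjusted p = 1.5e-05). Orm3, Saa4 and Lbp went down, by -2.55 ± 0.26 (adjusted p = 2.3e-05), by -1.18 ± 0.18 (adjusted p = 0.00059) and by -0.55 ± 0.13 (adjusted p = 0.014). Serpina3k, a protease inhibitor among the largest losses in CPM, was at 450.2, 789 and 1544 CPM on MCD, against 1381, 3407 and 5169 CPM on the control diet, a change of -1.91 ± 0.36 (adjusted p = 0.0031). The higher acute phase count was 1 or 2 when any library but flox MCD 2, cre MCD 1 or flox control 3 was left out.

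Transcription factors and nuclear receptors of hepatocytes were lower in 10 and higher in 1 of 36, median -0.27 (0.12 in unscaled FPKM). Hnf4a, the master regulator of hepatocyte identity, was at 194, 233 and 262 CPM on MCD, against 320.0, 351 and 522 CPM on the control diet, a change of -0.69 ± 0.15 (adjusted p = 0.0077). Nr1i2 (PXR) was at 49.7, 51.0 and 55.8 CPM on MCD, against 75.3, 80.4 and 94.6 CPM on the control diet, a change of -0.68 ± 0.11 (adjusted p = 0.0012). Nr1i3 (CAR), the partner receptor for drugs and bile acids, was at 82.8, 132 and 171 CPM on MCD, against 191, 238 and 264 CPM on the control diet, a change of -0.86 ± 0.17 (adjusted p = 0.005). Klf15, a regulator of amino acid catabolism in fasting, was at 37.6, 62.9 and 80.6 CPM on MCD, against 110.2, 129 and 175 CPM on the control diet, a change of -1.14 ± 0.19 (adjusted p = 0.0015). The single higher gene was Pparg. The lower count was 6 without flox MCD 1, cre MCD 2 or cre control 2. Genes of both zones of the lobule were lower, 8 of 26 periportal (median -0.31, 0.13 in unscaled FPKM) and 8 of 24 pericentral (median -0.25, 0.12 in unscaled FPKM). In turn 2 and 1 were higher (7.69% and 4.17%, against 7.14% of all genes), or 4 in each without flox control 3. The pericentral gene Rgn, regucalcin, was at 239, 385 and 580.4 CPM on MCD, against 689.7, 1161 and 1503 CPM on the control diet, a change of -1.54 ± 0.23 (adjusted p = 0.00056). Aldh1a1, retinal dehydrogenase, was the 1 pericentral gene that rose, at 1353, 1660.0 and 2292 CPM on MCD, against 424, 575 and 1309 CPM on the control diet, a change of 1.45 ± 0.27 (adjusted p = 0.0028). Of 23 hepatocyte identity genes 2 were higher and 3 lower, median -0.20 (0.22 in unscaled FPKM), with 1 higher when any library but flox MCD 2, flox control 2 or flox control 3 was left out and 1 lower without flox MCD 1 or flox MCD 2. Their summed level was 74430.0 to 140500.0 CPM on MCD and 80650.0 to 152100.0 CPM on the control diet. In whole liver, fewer cells of a type and less RNA per cell cannot be told apart.

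Markers of recruited and lipid-associated macrophages were the list with the largest share of higher genes, 19 of 27, with 0 lower, a median of 1.13 and 14 in every leave-one-out fit. Cre livers alone gave 8 higher members (list median 1.07) and flox livers 15 (list median 1.52), and the difference was not tested for the list. None of the 27 was at 0 in all libraries, and 10 of them stand in another list too. Their summed level was 1480.0 to 2745.0 CPM on MCD and 938.0 to 1680.0 CPM on the control diet, ranges that overlap. Members shared with other lists enter this sum, so it does not describe macrophages alone. Cd63, a tetraspanin of lysosomes and exosomes, was at 44.7, 68.4 and 87.9 CPM on MCD, against 3.82, 5.68 and 6.598 CPM on the control diet, a change of 3.64 ± 0.20 (adjusted p = 1e-07). Cd9, another tetraspanin, was at 15.4, 21.0 and 36.7 CPM on MCD, against 7.03, 9.4 and 11.8 CPM on the control diet, a change of 1.35 ± 0.18 (adjusted p = 0.00024). Trem2, the lipid receptor that defines these macrophages and was chosen after its value was seen, was at 1.07, 3.05 and 12.1 CPM on MCD, against 0.179, 0.439 and 1.44 CPM on the control diet, a change of 2.76 ± 0.49 (adjusted p = 0.0019). The cre MCD libraries held 1.07 to 1.93 CPM of Trem2 and the flox MCD libraries 4.18 to 12.1 CPM. For Cd63 the order was reversed, with 70.8 to 87.9 CPM in cre MCD and 44.7 to 66.0 CPM in flox MCD libraries. The difference of the diet effects on Cd63 did not pass (adjusted p = 0.54). Cd63 also stands in the lysosomal list, and which cells gave its rise was not tested. Resident Kupffer cell markers did not share the direction of this macrophage list, with 3 higher and 3 lower of 21 and a median of -0.01 (0.33 in unscaled FPKM). Each count is 14.3%, against 7.14% higher and 6.15% lower of all genes. The higher count was 1 without flox MCD 3, cre MCD 2, cre MCD 3, cre control 1 or cre control 2 and 5 without cre MCD 1, and the lower count 1 without flox MCD 2, flox MCD 3, cre MCD 3, flox control 1, cre control 2 or cre control 3. Timd4, a phosphatidylserine receptor of long-resident Kupffer cells, was at 1.40, 2.65 and 3.94 CPM on MCD, against 3.03, 6.67 and 8.36 CPM on the control diet, a change of -1.21 ± 0.26 (adjusted p = 0.0063), and was called in every leave-one-out fit. Clec4f, the marker most particular to Kupffer cells and chosen after its value was seen, was at 28.6, 36.9 and 41.2 CPM on MCD, against 37.9, 50.7 and 73.2 CPM on the control diet, with a change of -0.53 ± 0.16 (adjusted p = 0.043) that stood only when cre MCD 2 or flox control 3 was the library left out.

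Lymphocyte and neutrophil markers were few and low, 2 higher and 2 lower of 26 tested, with a summed level of 22.9 to 42.8 CPM on MCD and 23.1 to 52.2 CPM on the control diet (list median of log2 fold changes -0.10, 0.28 in unscaled FPKM). Each of these counts is 7.69%, near the 7.14% higher and 6.15% lower of all genes. The higher count was 1 without flox MCD 1, flox MCD 2, flox MCD 3, cre MCD 2, flox control 1, flox control 2 or cre control 2. Lower calls numbered 1 without flox MCD 3, cre MCD 1, cre MCD 3, flox control 2 or cre control 2, and 0 without cre MCD 2, flox control 1 or cre control 1. S100a9, a granulocyte and monocyte protein, changed by 1.44 ± 0.33 (adjusted p = 0.011). Interferon-induced genes were lower in 12 and higher in 1 of 40, median -0.34 (0.10 in unscaled FPKM), 9 of the lower genes in every leave-one-out fit, and the higher count was 0 without flox MCD 3 or cre control 3 and 2 without flox control 3. Ifit1 was at 4.84, 5.87 and 10.44 CPM on MCD, against 12.9, 16.3 and 26.5 CPM on the control diet, a change of -1.44 ± 0.21 (adjusted p = 0.00059). Irf9, a subunit of the interferon-activated complex, was at 11.9, 14.7 and 17.2 CPM on MCD, against 21.3, 26.1 and 30.8 CPM on the control diet, a change of -0.82 ± 0.14 (adjusted p = 0.0013). Gbp3 and Iigp1, GTPases of the response to interferon gamma, changed by -1.32 ± 0.23 (adjusted p = 0.0018) and by -0.86 ± 0.17 (adjusted p = 0.0035). Chemokines and cytokines gave 4 higher and 2 lower of 34. These are 11.8% and 5.88%, against 7.14% and 6.15% of all genes. Mif, a macrophage cytokine also made by hepatocytes, was at 121, 151 and 164 CPM on MCD, against 59.6, 76.9 and 93.2 CPM on the control diet, a change of 0.95 ± 0.14 (adjusted p = 0.00064). Ccl27a was at 3.25, 5.06 and 6.75 CPM on MCD, against 9.72, 14.4 and 16.5 CPM on the control diet, a change of -1.46 ± 0.17 (adjusted p = 6e-05). Tnfrsf12a, the TWEAK receptor of injured hepatocytes, changed by 1.42 ± 0.29 (adjusted p = 0.0054), and Cxcl13, a B cell chemokine, by -1.53 ± 0.35 (adjusted p = 0.01). The higher chemokine count was 2 without flox MCD 3, cre MCD 2, cre MCD 3 or cre control 2.

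Called matrix and stellate cell genes were nearly all higher, but few calls stood in every leave-one-out fit. In flox livers alone 8 matrix genes were higher and 0 lower, and in cre livers alone 1 was higher and 1 lower. Stellate markers gave 2 higher in flox livers alone and 0 in cre livers alone. The difference between genotypes was not tested for these lists. The summed level of the matrix list was 1053 to 1414 CPM on MCD and 1065 to 1434 CPM on the control diet. Of 43 matrix genes 14 were higher and 1 lower, median 0.63, and 4 of the higher stood in every leave-one-out fit. Dcn, decorin, was at 135, 223 and 265 CPM on MCD, against 90.5, 101 and 115 CPM on the control diet, a change of 1.08 ± 0.15 (adjusted p = 0.00035). Col4a1, basement membrane collagen, was at 19.1, 20.1 and 35.3 CPM on MCD, against 9.403, 11.6 and 14.2 CPM on the control diet, a change of 1.07 ± 0.19 (adjusted p = 0.0018). Lum, lumican, changed by 1.22 ± 0.24 (adjusted p = 0.004). Col18a1, which hepatocytes express, was the 1 lower member, at 199.6, 213 and 238 CPM on MCD, against 298, 339 and 352 CPM on the control diet, a change of -0.61 ± 0.12 (adjusted p = 0.0037). Col1a1, the main collagen of scars and chosen after its value was seen, was at 1.96, 3.27 and 14 CPM on MCD, against 1.18, 2.12 and 2.70 CPM on the control diet, a change of 1.40 ± 0.41 (adjusted p = 0.038), a call that stood only when flox MCD 2, cre MCD 1, cre MCD 2 or cre control 3 was the library left out. For matrix genes the higher count was 5 without flox MCD 3 or cre control 2, 6 without flox MCD 1, 8 without flox control 1, and 9 without cre MCD 3 or flox control 2, and the lower count 2 without flox control 3. Of 28 stellate cell markers 10 were higher and 0 lower, median 0.60, with 2 in every leave-one-out fit. These were Cygb, cytoglobin, with a change of 1.30 ± 0.26 (adjusted p = 0.0052), and Lrat, which stores retinol as esters, with a change of 0.98 ± 0.23 (adjusted p = 0.011). The stellate count was 3 without flox control 2, 4 without flox control 1, cre control 2 or cre control 3, 6 with flox MCD 2, flox MCD 3 or cre MCD 2 left out, and 5 with flox MCD 1 left out. The summed stellate level was 368 to 488 CPM on MCD and 290 to 388 CPM on the control diet. Of 25 endothelial markers 0 were called in edgeR's test, 7 had an unadjusted p under 0.05, DESeq2 called 2, and the unscaled FPKM fit 12. Without flox MCD 3, flox control 2 and flox control 3 the edgeR count was 1 higher, 2 higher and 1 lower in turn. The 2 with the smallest p were Bmp2 (0.51 ± 0.16, adjusted p = 0.055) and Wnt9b (1.06 ± 0.38, adjusted p = 0.08).

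Cholangiocyte markers and epithelial keratins were higher in 8 and lower in 0 of 22, median 0.97, 6 in every leave-one-out fit. Krt8 and Krt18 form the keratin pair of hepatocytes and bile ducts. Krt8 was at 145, 211 and 275 CPM on MCD, against 69.4, 84.7 and 117 CPM on the control diet, a change of 1.22 ± 0.18 (adjusted p = 0.00048). Krt18 was at 138, 155 and 193 CPM on MCD, against 88.7, 103 and 115 CPM on the control diet, a change of 0.67 ± 0.13 (adjusted p = 0.0038). Krt23 changed by 1.51 ± 0.27 (adjusted p = 0.002), and Cd24a, a marker of ductal and progenitor cells, by 2.70 ± 0.43 (adjusted p = 0.00099), or 2.06 without flox MCD 2. Krt19 and Krt7, which mark bile ducts in the narrow sense, did not pass; they were chosen after their values were seen. The summed level of the list was 487 to 726 CPM on MCD and 284 to 359 CPM on the control diet, with no overlap. The sum includes Krt8, at 145 to 275 CPM on MCD and 69.4 to 117 CPM on the control diet. It also includes Krt18, at 138 to 193 CPM and 88.7 to 115 CPM in turn. Hepatocytes express both keratins, so the sum does not describe bile duct markers alone.

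Members of the cytoskeletal, lysosomal and cell cycle lists rose as well. Of 45 actin and microtubule genes 15 were higher and 0 lower, median 0.47, 12 in every leave-one-out fit. Anxa2, a membrane-binding annexin, was at 21.2, 42.4 and 60.2 CPM on MCD, against 3.85, 6.32 and 7.70 CPM on the control diet, a change of 2.74 ± 0.20 (adjusted p = 1.5e-06). Tuba8, a tubulin, was at 18.5, 22.2 and 27.6 CPM on MCD, against 1.69, 3.01 and 5.87 CPM on the control diet, a change of 2.76 ± 0.26 (adjusted p = 1.3e-05). Tpm1, tropomyosin, was at 29.4, 40.0 and 42.4 CPM on MCD, against 13.8, 15.2 and 17.7 CPM on the control diet, a change of 1.30 ± 0.13 (adjusted p = 1.7e-05), and S100a11 changed by 2.26 ± 0.27 (adjusted p = 8.7e-05). Of 41 lysosomal genes 11 were higher and 1 lower, median 0.34. Hexa, a subunit of hexosaminidase, was at 38.6, 49.1 and 58.2 CPM on MCD, against 18.1, 22.4 and 37.8 CPM on the control diet, a change of 1.01 ± 0.19 (adjusted p = 0.0026). The cathepsins Ctsd and Ctsl changed by 0.9991 ± 0.20 (adjusted p = 0.0053) and by 1.27 ± 0.29 (adjusted p = 0.0099), with overlapping diets. The higher lysosomal count was 7 without flox MCD 1, flox MCD 3, cre MCD 2, cre MCD 3, flox control 1 or flox control 2, and 19 without flox control 3, and the lower call ended or became 2 in all leave-one-out fits but that without cre control 1. Macrophages are rich in both groups of genes, and the part of the macrophage markers in these counts was not tested.

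Of 35 genes of the cell cycle, DNA replication and the p53 response 10 were higher and 0 lower, median 0.55, 7 in every leave-one-out fit. Ccnd1, cyclin D1, was at 111, 129 and 179 CPM on MCD, against 14.4, 37.4 and 85.5 CPM on the control diet, a change of 1.84 ± 0.28 (adjusted p = 0.00063). Mcm2, of the replicative helicase, was at 2.21, 3.22 and 4.20 CPM on MCD, against 0.580, 1.004 and 1.57 CPM on the control diet, a change of 1.74 ± 0.28 (adjusted p = 0.0011). Gadd45b, a stress-induced gene, changed by 1.37 ± 0.16 (adjusted p = 8.2e-05), and Myc by 1.47 ± 0.20 (adjusted p = 0.00025). Immediate-early genes were higher in 7 and lower in 2 of 25, median 0.66, with 1 lower without flox MCD 2, flox MCD 3, cre MCD 2 or cre control 3. Atf3 was at 3.49, 8.51 and 23.8 CPM on MCD, against 1.06, 1.57 and 2.91 CPM on the control diet, a change of 2.32 ± 0.28 (adjusted p = 8.7e-05). Klf6 changed by 1.20 ± 0.19 (adjusted p = 0.001), whereas Dusp1, a phosphatase that glucocorticoids induce, was at 16.9, 23.7 and 42.4 CPM on MCD, against 55.6, 72.8 and 113 CPM on the control diet, a change of -1.57 ± 0.17 (adjusted p = 3.7e-05). Of 20 clock genes 3 were lower and 0 higher, Per1 by -0.80 ± 0.19 (adjusted p = 0.013), Noct by -1.38 ± 0.38 (adjusted p = 0.027) and Hlf by -0.57 ± 0.16 (adjusted p = 0.029). Only the Per1 call stood in every leave-one-out fit. The Noct call ended without the library labelled cre MCD 3, and the Hlf call without flox MCD 1, flox MCD 3, cre MCD 2 or cre control 3. For clock genes the lower count was 6 without cre MCD 1 or flox control 3, 1 gene was higher without flox MCD 1 or cre control 1, and collection times are not given in the labels.

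Counts for ribosomal, proteasomal and respiratory genes turned on flox control 3. Of 47 ribosomal protein genes 2 were higher with all libraries and 25 without flox control 3, of 42 nuclear-encoded respiratory subunits 5 and 20, and of 33 proteasome subunits 2 and 10. With all libraries these are 4.26%, 11.9% and 6.06%, against 7.14% of all genes. The ribosomal count was 0 or 1 when any other library but cre MCD 1 was left out, the respiratory count 2 or 3 when any other library but flox MCD 1, flox MCD 3 or cre MCD 1 was left out, and the proteasome count 1 without flox MCD 1, cre MCD 2 or cre control 2. Rpl3, a ribosomal protein, was at 127, 231 and 328 CPM on MCD, against 74.8, 88.3 and 253 CPM on the control diet, and Cox5a, of complex IV, at 82.9, 120.3 and 207 CPM on MCD, against 43.03, 57.9 and 149 CPM on the control diet; in both the highest control library was flox control 3, and both calls stood when flox MCD 1, cre MCD 1 or flox control 3 was left out, that of Cox5a also without flox MCD 3, and in no other leave-one-out fit. The ribosomal RNA share of that library was 7.34%, the lowest of the control libraries, and its part in these counts was not tested. Ndufa8, of complex I, was at 112, 134 and 149.7 CPM on MCD, against 62.9, 89.9 and 96.7 CPM on the control diet, a change of 0.59 ± 0.13 (adjusted p = 0.008), and was called in every leave-one-out fit. Among transcripts of the mitochondrial genome 15 of 20 tRNA genes were lower and 0 higher. Of the 13 coding genes 2 were lower, with a median of -0.84. They were mt-Cytb, with -1.19 ± 0.31 (adjusted p = 0.02), and mt-Co1, with -1.11 ± 0.34 (adjusted p = 0.044). The mt-Cytb call ended without cre MCD 2 or cre MCD 3, and the mt-Co1 call ended in 9 of the 12 leave-one-out fits, all but those without flox MCD 2, flox control 1 or flox control 3. The share of counts taken by these coding genes is given with the libraries above, and its part in these calls was not tested.

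**Figure D5:**
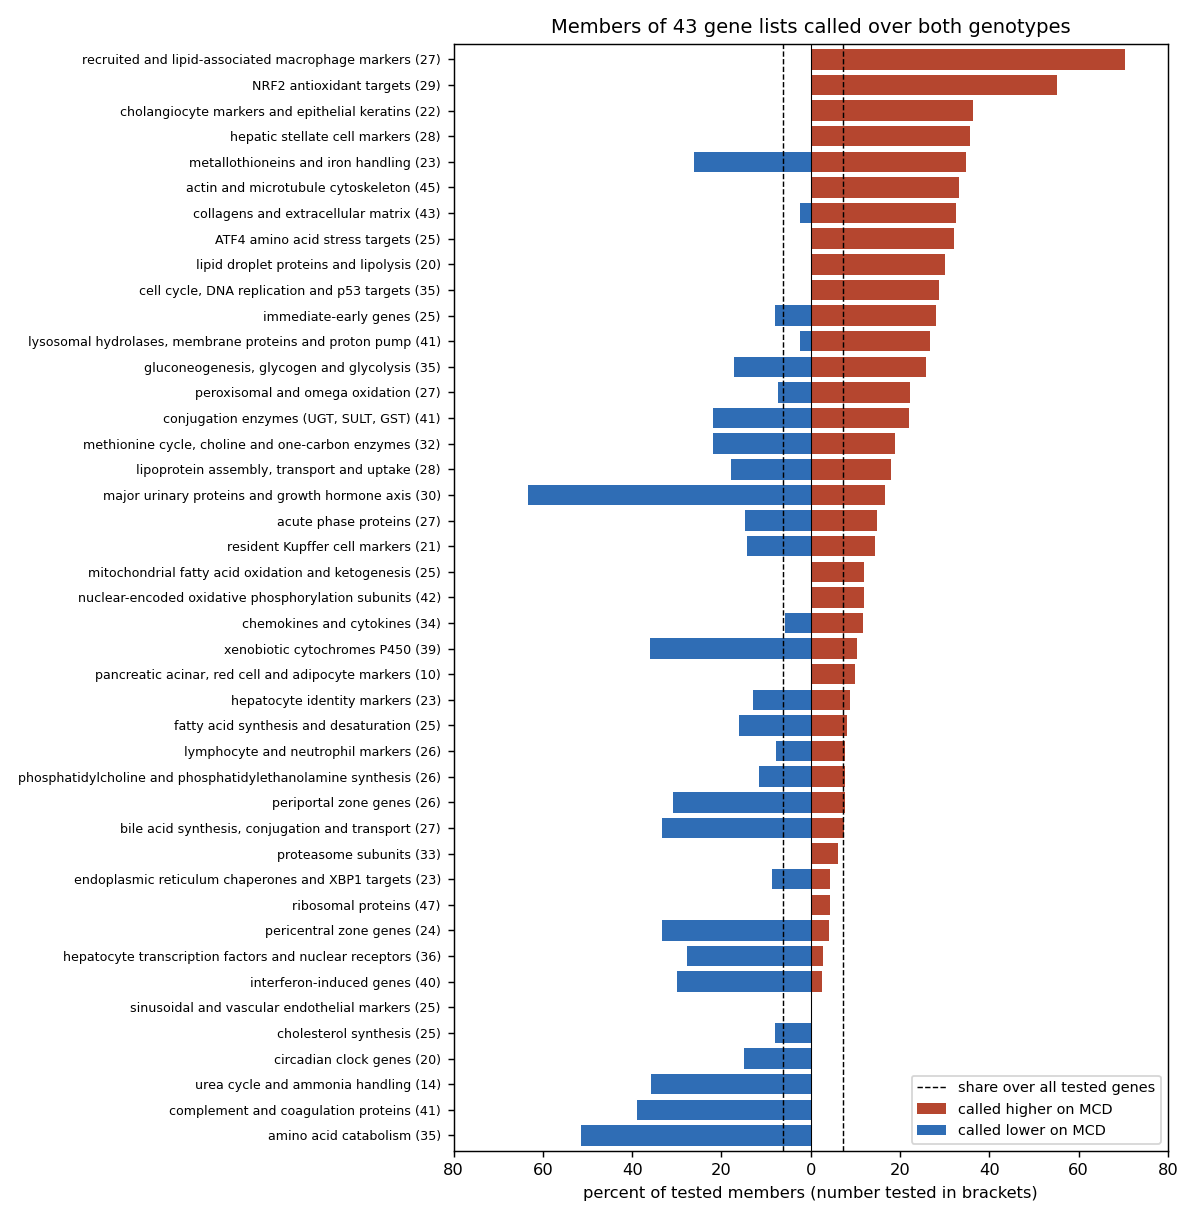
Percent of the tested members of each of 43 gene lists that were called higher (right, red) or lower (left, blue) on MCD over both genotypes, with the number tested in brackets; dashed lines give the share over all genes, 7.14% higher and 6.15% lower. Macrophage markers (19 of 27) and NRF2 targets (16 of 29) have the longest bars to the right, and Mup and growth hormone genes (19 of 30) and amino acid catabolism (18 of 35) the longest to the left.

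Pooling the genotypes brought in genes that neither reached alone. Of the 931 such genes, the 10 with the smallest p were Bcam, Pam, Fchsd1, Gm10762, Syngr1 and C77080, which were higher, and Mx2, Thap2, S1pr5 and Rtp4, which were lower. Bcam, a laminin receptor, was at 3.23, 5.76 and 6.98 CPM on MCD, against 2.28, 2.78 and 3.36 CPM on the control diet. It changed by 0.95 ± 0.19 (adjusted p = 0.0039), with 0.95 (adjusted p = 0.05) in cre livers and 0.95 (adjusted p = 0.057) in flox livers. Mx2, an interferon-induced GTPase, was at 0.807, 1.40 and 2.02 CPM on MCD, against 2.11, 3.67 and 7.23 CPM on the control diet. It changed by -1.55 ± 0.31 (adjusted p = 0.0046), with -1.48 (adjusted p = 0.064) in cre livers and -1.62 (adjusted p = 0.053) in flox livers. S1pr5, a sphingosine-1-phosphate receptor, changed by -1.73 ± 0.35 (adjusted p = 0.005), with -1.79 (adjusted p = 0.05) in cre and -1.66 (adjusted p = 0.083) in flox livers. All 10 were called in every leave-one-out fit, which their choice by smallest p favours. Syngr1 changed by 4.39 ± 0.89 (adjusted p = 0.005), by 5.11 without cre control 2 and by 5.41 without flox control 2.

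Of 22 pancreatic acinar, red cell and adipocyte genes, markers of cells that could be carried along, 12 were too low to test, and 8 of these had 0 counts in all 12 libraries. Their summed level, which includes the globin genes of red cells, was 590.0 to 1024 CPM on MCD and 808 to 1414 CPM on the control diet. Of the 10 tested 1 was higher, or 2 without flox control 3. It was Alas2, the heme synthesis enzyme of red cell precursors, with 1.45 ± 0.30 (adjusted p = 0.0055).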

How the data were processed

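The authors deposited estimated counts per gene as whole numbers, and FPKM per gene and per transcript. The submitters' processing notes name cutadapt, FastQC, HISAT2, StringTie, edgeR and the mm10 genome with no versions, and which tool made which table is not given in the sources used here. Main results came from the estimated counts with edgeR 4.0.16 in R 4.3.3: its default expression filter, TMM scaling, a quasi-likelihood fit of diet with genotype as a covariate, and Benjamini-Hochberg adjustment over 16523 genes. CPM values are TMM-normalised. The fit with a mean per group gave the effects within flox and cre livers and their difference. Alternatives used DESeq2 1.42.0, limma 3.58.1 on log2 values of voom or of FPKM plus 1 or 0.1, other filters and scalings, and fits without each library. The code was tested on simulated counts. Depth was 40883986 to 65516723 counts per library, and only genes near 0 are limited by counting.

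The rule for named genes took Lpcat3 and Sult1e1, the 15 largest rises and 15 largest falls with no overlap and a mean of at least 5 CPM, up to 4 called members of smallest p per list (2 where none passed), the 10 genes of smallest p that passed only over both genotypes, the 5 largest gains and 5 largest losses in mean CPM, and genes called for the genotype difference. Genes outside the rule (Mup20, Ghr, Igfals, Igfbp2, Fgf21, Trem2, Clec4f, Col1a1, Fdps, Sqle, and those named without values) were chosen after their values were seen. The comparison and all lists were chosen with earlier results of these data known. Replicate numbers in the labels are shared by the groups, but the labels do not state that they mark pairs, and the main fit took no pairs. Exact permutation tests were 2-sided. Promoters are RefSeq's. Some items are not reported here.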

Additional observations from a re-analysis of the deposited data

Results flagged for a closer look

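Each gene given with its levels, and each sum over rows, was checked for a library far from the other 5 of its diet, by the gap to the nearest library over the whole range. Of 204 sets of 6 libraries, 19 (9.31%) passed Dixon's critical value for 6 values, against about 1 in 20 by chance. Flox control 3 accounted for 9 of the 19, each time as the highest control library. It stood at 1309 CPM for Aldh1a1, 148 CPM for Cox5a, 37.8 CPM for Hexa, 522 CPM for Hnf4a and 175 CPM for Klf15. It stood at 63.3 CPM for Mat2a, 253 CPM for Rpl3, 749 CPM for Sardh and 7.19 CPM for Sult1e1.

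Cre control 1 was the highest control library for Asns at 0.743 CPM, for Gpnmb at 0.255 CPM and for Uroc1 at 313 CPM. The library labelled cre MCD 3 was the highest MCD library for C8g at 261 CPM and for Gsta1 at 144 CPM. Among MCD libraries flox MCD 2 was highest for Cyp4a14 at 4899 CPM, flox MCD 1 was highest for Nupr1 at 16.4 CPM, and cre MCD 2 was lowest for Igf1 at 283 CPM. Among control libraries flox control 1 was lowest for Ndufa8 at 62.9 CPM, and flox control 2 was highest for Trem2 at 1.44 CPM.

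The diet effect on a row of Pakap differed between genotypes in the interaction test, by -6.45 on the log2 scale for cre minus flox livers.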

How the results depend on the processing

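Of the 184 called genes checked one by one, 0 changed direction under any alternative. Most of these genes were picked for a small p or a large change in the same libraries, and most alternatives reuse those libraries. Both favour a kept direction, so the count of 0 is no independent check. Lpcat3, which was not called, changed by 0.27 with all libraries, by -0.06 with flox libraries only and by -0.07 without the library labelled cre MCD 3. The 1179 higher and 1016 lower calls became 312 and 343 with flox libraries only, 601 and 453 with cre libraries only, and 593 and 474 with a 2-fold minimum. Leaving out 1 library gave 758 to 2002 higher and 650 to 1541 lower genes. On unscaled FPKM they were 4245 and 380 with a pseudocount of 1, 4172 and 373 with 0.1, and 3402 and 292 with no filter. DESeq2 gave 1619 and 1513, voom 1275 and 1037, and an edgeR fit without a filter 1137 and 820. The interaction called 1 gene, 1 to 2 without single libraries and 99 with DESeq2. The cause of these moves was not tested. Same-numbered libraries correlated by -0.0285 to 0.345 and libraries of different numbers by -0.345 to 0.0846. The main fit did not take the numbers as pairs, because the labels do not state that they mark pairs. With the replicate block 1441 genes were higher, 1208 lower and 1 called for the interaction. Leaving out a library moved 36 of 66 list counts above 0 by over 1.5 times, 26 of these being counts of 1 to 4. Counting depth limits only genes near 0, of which 42 called genes had 0 counts in a diet. Counts cannot settle shares among near-identical copies such as the Mup genes.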
